A study of Moricandia suffruticosa and Brassica napus with 23 samples.

Results

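The plasma membrane intrinsic proteins of the PIP1 and PIP2 groups, the aquaporins that carry water across the plasma membrane of plant cells, were followed copy by copy in leaves of Brassica napus (oilseed rape) kept as control, under drought or under heat. A gene was taken as a member when its best Arabidopsis match in the deposited table was any of 13 loci, PIP1;1 to PIP1;5 and PIP2;1 to PIP2;8. This gave 53 of the 101040 genes listed, 25 PIP1 and 28 PIP2 copies, with 29 gene IDs naming the A and 24 the C subgenome. The matches fell on 9 of the 13 loci, and the other 4 (PIP1;3, PIP1;5, PIP2;3 and PIP2;8) were the best match of no gene. Their reach was uneven, with 17 copies for PIP1;4 and 1 for PIP1;2, and identities to the PIP1;4 protein ran from 92.68% to 98.26%. The best match therefore names the closest protein in that annotation and does not settle from which ancestral gene a copy descends. How reads that fit several near-identical copies were assigned is not given in the sources used here, so the split between copies of a locus is less certain than their sum.

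Per the labels, all plants were 35 days old and raised in soil, at 60% humidity, 25 °C and a day of 16 h. Control leaves were untreated, drought leaves came after 3 days without water, and heat leaves after 3 h at 40 °C. RNA with a poly(A) tail was sequenced in 3 libraries per group, so every mean below has n = 3. The labels give the same line code for all 3 groups but no cultivar name, and they do not state whether separate plants were used for each library. What the p-values below measure is therefore library-to-library spread, possibly of technical origin. Between libraries of the same group, squared differences in recovered reads averaged 1.44 to 1.90 times those of read sampling alone. These ratios cover 36777 to 39416 genes with an intermediate read count in a pair of libraries. The most abundant PIP copies lie above that range. The spread between libraries is small, and very small p-values follow from it. The 14 samples of Moricandia suffruticosa among the 23 of the series were not analysed here.

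PIP proteins assemble as tetramers in which every subunit forms its own pore, and they carry much of the water that leaves and enters cells between the veins, the mesophyll and the stomata. PIP2 proteins are strong water channels on their own, whereas many PIP1 proteins reach the plasma membrane and gain water transport when paired with a PIP2 partner, as shown in maize and Arabidopsis. Some members also pass hydrogen peroxide or carbon dioxide, and their pores are closed by dephosphorylation and by acid cytosol, so that transcript level is only part of the control of water flow.

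Levels are given in FPKM, fragments scaled by coding length and by the total of a library, so that copies of different length can be set side by side. Read totals, inferred from the spacing of the deposited values, ran from 12173804 to 12934922 per library. On that scale, 1 read on 1 kb of coding length was worth 0.0773 to 0.0821 FPKM. Whether the totals hold assigned or all mapped reads is not given. Of the 53 copies, 40 (20 PIP1 and 20 PIP2) reached 1 FPKM in at least 3 libraries and were tested, and the highest value among the 13 others was 1.66 FPKM. A copy was called higher or lower at a limma adjusted p under 0.05 over all 44260 genes tested and a log2 change of (FPKM + 1) of at least 1 in size. Of the 40, 4 passed through 1 group alone (BnaAnng32820D, BnaCnng08780D, BnaC03g20550D and BnaA07g16510D), which builds a difference into their passing, so counts over the 40 are descriptions. In the 30 copies with a control mean of at least 10 FPKM, the coefficient of variation between control libraries had a median of 1.93% and ran from 0.0609% to 15.3%.

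In control leaves the PIP copies together took 1.01% of the inferred read total, and their summed level was 11961 FPKM. It stood at 10579 FPKM in drought, 0.884 times control, and at 5961 FPKM in heat, 0.498 times control. PIP1 copies summed to 5500.3 ± 84.3 FPKM (SD) in control, 5783 ± 217 in drought and 3144 ± 31.7 in heat. PIP2 copies summed to 6460.3 ± 18.5 FPKM in control, 4796 ± 115 in drought and 2817 ± 47.7 in heat. The summed PIP2 level in drought was thus 0.742 times control while that of PIP1 was 1.05 times control, and in heat the ratios were 0.436 and 0.572. The PIP1 share of the summed level was 46.0% ± 0.308 in control, 54.7% ± 0.334 in drought and 52.8% ± 0.357 in heat, and the 3 libraries of control overlapped with neither stress. The change of this share from control to heat depends strongly on 1 PIP2 copy, BnaA09g33720D, mainly through the control sum. Its mean was 1308 FPKM in control and 110 FPKM in heat. Over the tested copies, the median log2 changes in heat were close, at -0.76 for PIP1 and -0.87 for PIP2. In whole leaves, fewer cells of a type and less RNA per cell cannot be told apart.

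**Figure D1:**
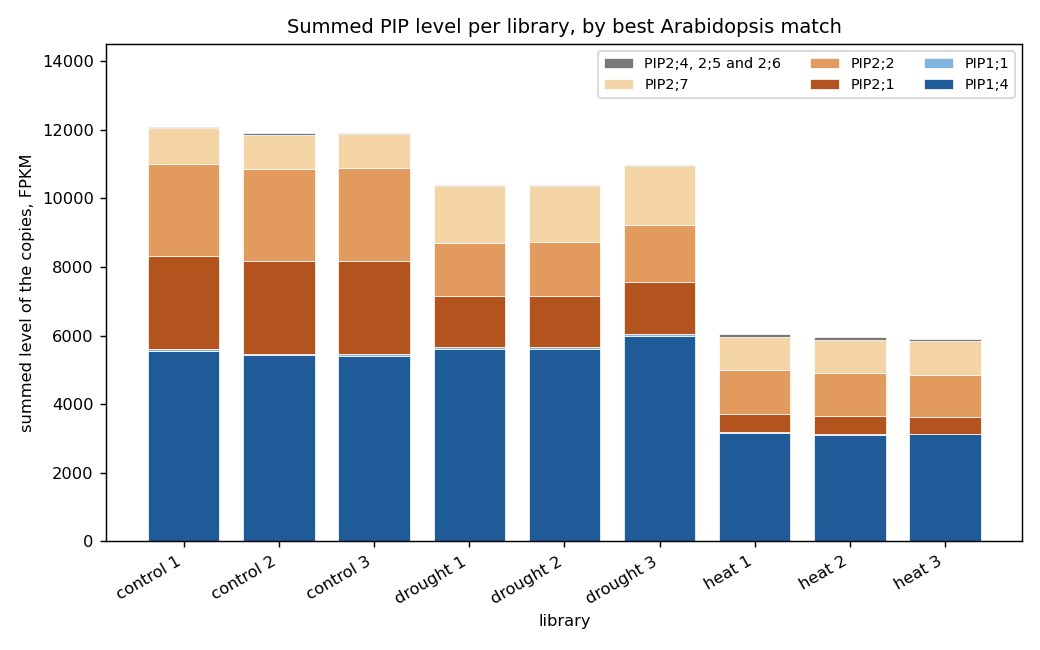
Summed FPKM of the PIP copies (vertical axis) in each of the 9 libraries (bars), stacked by best Arabidopsis match, with PIP1 in blue and PIP2 in brown, orange and grey. The heat bars reach about 0.498 times the control bars, and the PIP2;1 block goes from 2728 FPKM in control to 522 FPKM in heat.

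Under drought, PIP2;2 and PIP2;5 copies made up most of the falls, and the strongest rises were in PIP1;4 and PIP2;7 copies. Of the 40 copies tested, 9 were lower and 4 higher than control, against 6.87% lower and 5.12% higher (12.0% in all) among all genes tested. By group, 7 of 20 PIP2 copies were lower and 1 higher, and 2 of 20 PIP1 copies were lower and 3 higher. Among the 36 copies that passed the filter in more than 1 group, 7 were lower and 3 higher. Without the fold threshold, 21 of the 40 were lower and 13 higher, against 26.5% and 19.6% of all genes tested. The difference between PIP1 and PIP2 copies was not tested. The median log2 change was -0.64 for PIP2, -0.05 for PIP1 and -0.06 for all genes tested. With TMM scaling the medians were -0.56 for PIP2, 0.03 for PIP1 and 0.003 for all genes tested. Drought and control libraries did not overlap in 34 of the 40, against 54.7% of all genes tested.

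Under heat, all 3 tested PIP2;1 copies fell, and 1 copy of the family, the C-subgenome copy of PIP2;6, rose. Of the 40 copies tested, 18 were lower and 1 higher than control, against 11.2% lower and 14.4% higher (25.6% in all) among all genes tested. The 18 were 9 of 20 PIP1 and 9 of 20 PIP2 copies. Among the 36 copies that passed the filter in more than 1 group, 16 were lower and 1 higher. Without the fold threshold, 34 of the 40 were lower and 2 higher, against 27.6% and 40.1% of all genes tested. The median log2 change was -0.76 for PIP1 and -0.87 for PIP2, against 0.16 for all genes tested. Heat and control libraries did not overlap in 37 of the 40, against 71.4% of all genes tested. TMM scaling moved the all-gene median by -0.15 and the share of called genes that were higher from 56.2% to 45.0%, and it gave 21 lower PIP copies and 1 higher. Relative to the all-gene median, the PIP median was -1.02 as deposited and -1.06 with TMM.

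Between the stresses, 14 of the 40 copies were lower in heat than in drought and 1 was higher, against 11.1% lower and 17.5% higher (28.6% in all) among all genes tested. PIP1 gave 10 lower of 20 with a median log2 change of -0.99, and PIP2 gave 4 lower and 1 higher of 20 with a median of -0.41, against 0.20 for all genes. Without the fold threshold, 27 of the 40 were lower and 3 higher, against 26.7% and 42.9% of all genes tested. Libraries of the 2 stresses did not overlap in 33 of the 40, against 71.8% of all genes tested. TMM moved the all-gene median by -0.21 and the share of called genes that were higher from 61.3% to 46.5%, and it gave 19 lower PIP copies and 1 higher. With TMM, PIP1 gave 12 lower at a median of -1.26, and PIP2 gave 7 lower and 1 higher at a median of -0.68, against -0.01 for all genes. Drought and heat were set against the same 3 control libraries, so their values are given side by side below and not compared with each other except in this direct contrast.

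**Figure D2:**
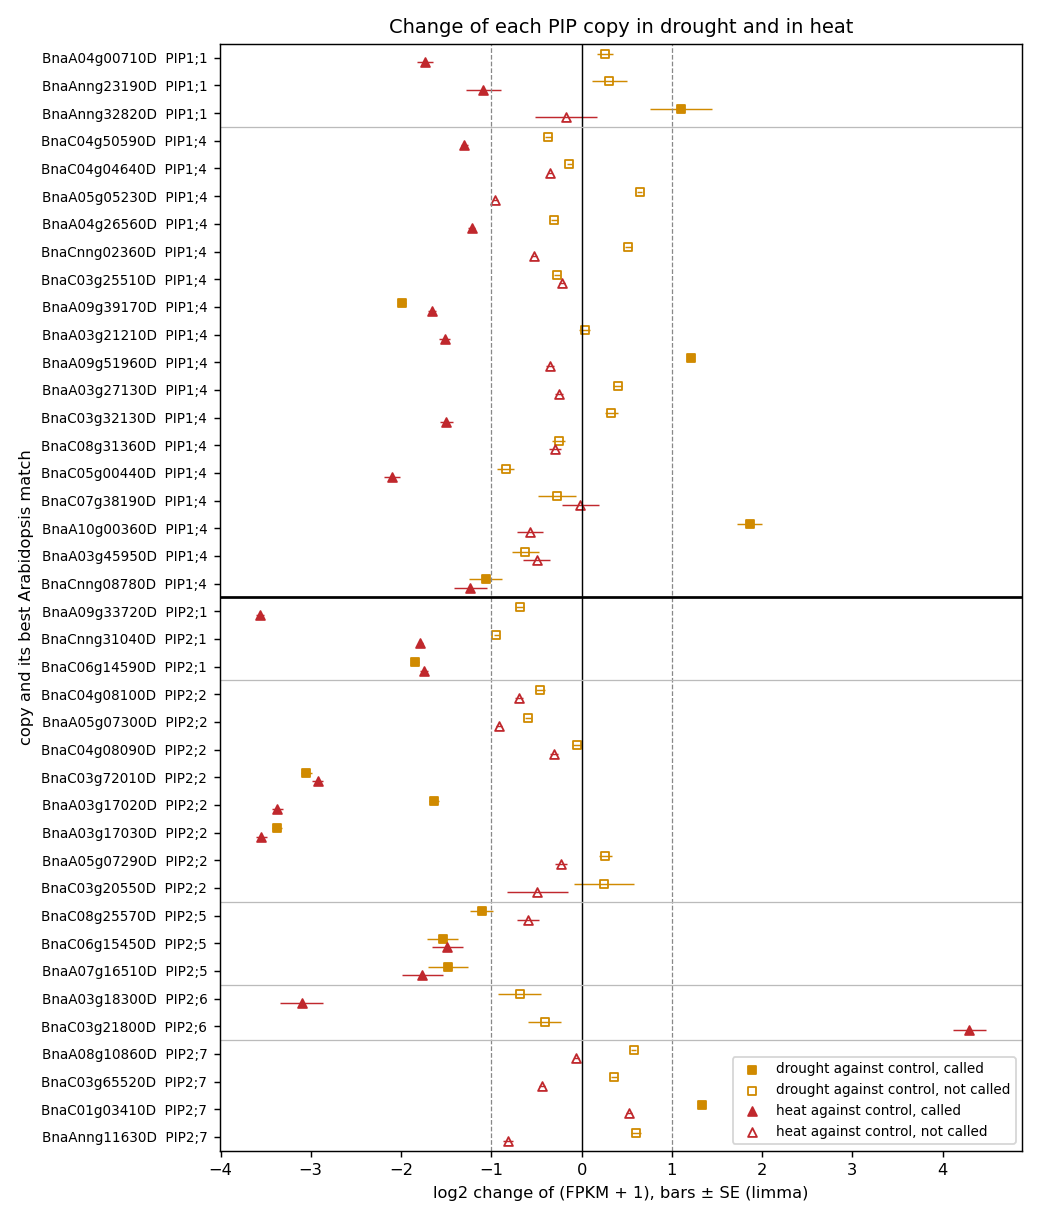
Log2 change of (FPKM + 1) against control (horizontal axis, bars ± SE) for the 40 tested copies, drought as squares and heat as triangles, filled where called and open where not, with dashed lines at a log2 change of 1 in size. The heat triangles lie below 0 for 38 of 40 copies, and the C-subgenome PIP2;6 copy stands alone on the right at 4.30.

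PIP2;1 (AT3G53420), which in Arabidopsis passes water and hydrogen peroxide and takes part in stomatal closure, held 3 expressed copies here. The A-subgenome copy BnaA09g33720D was at 1307, 1308 and 1309 FPKM in control, 816, 817 and 806 FPKM in drought and 114, 115 and 101 FPKM in heat. The 3 groups did not overlap, with control highest and heat lowest. Its level fell in heat by 11.9-fold, a log2 change of -3.56 ± 0.04 (SE, limma adjusted p = 1.86e-13), and the drought change of -0.69 ± 0.04 did not reach the fold threshold. The C-subgenome copy BnaCnng31040D was at 1220.2, 1225 and 1228 FPKM in control, 621, 629 and 659 FPKM in drought and 359.9, 359 and 345 FPKM in heat. It was again highest in control and lowest in heat without overlap, and it fell in heat (log2 change -1.78 ± 0.03 SE, limma adjusted p = 1.91e-12). In drought its change was -0.94 ± 0.03, not called. The less abundant BnaC06g14590D was at 195, 195 and 196 FPKM in control, 52.6, 53.2 and 55.0 FPKM in drought and 59.7, 57.2 and 55.9 FPKM in heat. Both stresses lay far below control in this copy, and it fell in drought (log2 change -1.85 ± 0.04 SE, limma adjusted p = 3.67e-11) and in heat (log2 change -1.75 ± 0.04 SE, limma adjusted p = 4.07e-11).

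Summed over its copies, PIP2;1 was at 2728 ± 5.21 FPKM (SD) in control, 1503 ± 15.6 in drought and 522 ± 17.4 in heat. Sums per locus were tested over 16186 loci, among which 7.31% were called lower and 5.08% higher in drought, and 10.4% lower and 14.5% higher in heat. Of the 8 PIP loci tested, 1 was lower and 0 higher in drought, and 4 were lower and 1 higher in heat. PIP2;1 was among the 4, with a log2 change of -2.38 ± 0.03 (SE, limma adjusted p = 2.05e-15), while in drought it stood at -0.86 ± 0.03, not called. In heat against drought, 3 loci were lower and 1 higher, against 10.2% lower and 18.0% higher among all loci, and PIP2;1 was again lower at -1.52 ± 0.03 (SE, limma adjusted p = 5.96e-14).

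PIP2;2 (AT2G37170), a main channel of root water uptake in Arabidopsis, had 8 tested copies, which divided into 3 that fell under both stresses and 5 that were called under neither. BnaA03g17020D was at 348, 346 and 355 FPKM in control, 114, 109 and 112 FPKM in drought and 29.9, 33.4 and 35.6 FPKM in heat. The groups did not overlap, and it fell in drought (log2 change -1.63 ± 0.06 SE, limma adjusted p = 1.19e-09) and in heat (log2 change -3.37 ± 0.06 SE, limma adjusted p = 2.54e-12). The next gene number on the same chromosome, BnaA03g17030D, was at 213, 209 and 211 FPKM in control, 19.9, 18.6 and 19.9 FPKM in drought and 16.8, 18.1 and 16.5 FPKM in heat. Here drought and heat lay close together, far below control, with log2 changes of -3.37 ± 0.06 (SE, limma adjusted p = 2.66e-12) and -3.55 ± 0.06 (SE, limma adjusted p = 1.40e-12). BnaC03g72010D, whose predicted protein has 159 residues and is thus a partial gene model, was at 362, 374 and 362 FPKM in control, 41.6, 42.4 and 46.1 FPKM in drought and 51.5, 46.8 and 44.2 FPKM in heat. It fell in drought (log2 change -3.05 ± 0.06 SE, limma adjusted p = 1.09e-11) and in heat (log2 change -2.92 ± 0.06 SE, limma adjusted p = 1.10e-11), and the 2 stresses overlapped.

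The most abundant PIP2;2 copy was lower under both stresses too, but by less, and was not called. BnaC04g08100D was at 612, 598 and 592 FPKM in control, 411, 430.2 and 474 FPKM in drought and 378, 369 and 367 FPKM in heat. Its log2 changes were -0.46 ± 0.05 in drought (SE, limma adjusted p = 8.86e-06) and -0.69 ± 0.05 in heat (SE, limma adjusted p = 1.39e-07). Both were under the fold threshold, although the groups did not overlap. Its neighbour BnaC04g08090D had group means of 462, 446 and 375 FPKM in control, drought and heat, with overlap of control and drought. The adjacent pair BnaA05g07300D and BnaA05g07290D went from 559 to 369.5 and 296 FPKM and from 139 to 168 and 119 FPKM, neither called. The fifth uncalled copy, BnaC03g20550D, is a model of 72 residues with at most 7 reads in a library. Summed over copies, PIP2;2 was at 2688 ± 8.13, 1597 ± 71.2 and 1258 ± 33.2 FPKM (SD), with a called log2 change in heat of -1.09 ± 0.03 (SE, limma adjusted p = 7.06e-12) and an uncalled -0.75 ± 0.03 in drought.

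PIP2;6 (AT2G39010), a PIP2 of leaf veins in Arabidopsis, had 2 copies that moved in opposite directions in heat. The C-subgenome copy BnaC03g21800D was at 1.91, 2.43 and 1.54 FPKM in control, 0.663, 1.87 and 1.26 FPKM in drought and 52.9, 61.1 and 56.5 FPKM in heat. All 3 heat libraries stood far above the other 6, and drought overlapped with control. It rose in heat (log2 change 4.30 ± 0.18 SE, limma adjusted p = 3.49e-09), with group means 29.0-fold apart. The A-subgenome copy BnaA03g18300D was at 14.3, 13.2 and 10.5 FPKM in control, 7.11, 7.85 and 7.40 FPKM in drought and 0.803, 1.20 and 0 FPKM in heat. Heat lay below the other groups without overlap, with 9, 13 and 0 reads, and the copy fell (log2 change -3.10 ± 0.24 SE, limma adjusted p = 5.29e-07). Its drought change of -0.68 ± 0.24 was not called. The summed PIP2;6 level rose in heat (log2 change 1.91 ± 0.11 SE, limma adjusted p = 7.14e-09), from 14.6 ± 2.24 to 57.5 ± 4.42 FPKM (SD), which was still 0.965% of the summed PIP level.

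PIP2;5 (AT3G54820), reported in Arabidopsis leaves as a PIP gene that rises under drought, was low in these leaves and lower under both stresses. Its most abundant copy, BnaC08g25570D, was at 9.79, 12.0 and 10.1 FPKM in control, 4.96, 4.33 and 3.91 FPKM in drought and 5.84, 6.57 and 7.72 FPKM in heat. Control lay above both stresses, and the copy fell in drought (log2 change -1.11 ± 0.12 SE, limma adjusted p = 2.34e-05), while its heat change of -0.60 ± 0.12 was not called. BnaC06g15450D fell in drought (log2 change -1.54 ± 0.17 SE) and in heat (log2 change -1.49 ± 0.17 SE), from a control mean of 6.32 FPKM. BnaA07g16510D was at 3.75, 5.80 and 5.48 FPKM in control, 1.72, 0.847 and 0.909 FPKM in drought and 1.26, 0.370 and 0.727 FPKM in heat. It was called lower in both stresses (log2 changes -1.48 ± 0.22 and -1.76 ± 0.22 SE), but only its control libraries all reached the filter, so part of that difference is set by the filter. The summed PIP2;5 level of 23.1 ± 2.97 FPKM (SD) in control, 7.42 ± 0.413 in drought and 9.50 ± 0.780 in heat was the 1 locus sum called in drought, at -1.51 ± 0.10 (SE, limma adjusted p = 4.60e-08), and it was lower in heat too, at -1.20 ± 0.10 (SE, limma adjusted p = 2.64e-07).

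PIP2;7 (AT4G35100), annotated in the table as inducible by salt stress in Arabidopsis, had its highest mean in drought in each of its 4 tested copies. Its copy BnaC01g03410D was at 232, 231 and 222 FPKM in control, 573, 559 and 599.6 FPKM in drought and 329.7, 331 and 323 FPKM in heat. Drought was highest and control lowest without overlap, and the copy rose in drought (log2 change 1.33 ± 0.03 SE, limma adjusted p = 8.32e-11). BnaA08g10860D was at 385, 374 and 373 FPKM in control, 569, 559 and 563 FPKM in drought and 363, 362 and 362 FPKM in heat. Drought again lay above the other groups, at a log2 change of 0.58 ± 0.03 that missed the fold threshold. BnaAnng11630D, at 102, 94.3 and 96.6 FPKM in control, 143, 148 and 154 FPKM in drought and 51.2, 55.5 and 58.5 FPKM in heat, was lower in heat than in drought (log2 change -1.42 ± 0.06 SE, limma adjusted p = 1.92e-09) and was called against control in neither stress. BnaC03g65520D had means of 301, 386 and 222 FPKM and was not called. The summed PIP2;7 level was 1005 ± 20.5 FPKM (SD) in control, 1675 ± 31.9 in drought and 968 ± 1.48 in heat, a drought change of 0.74 ± 0.03 that was not called.

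**Figure D3:**
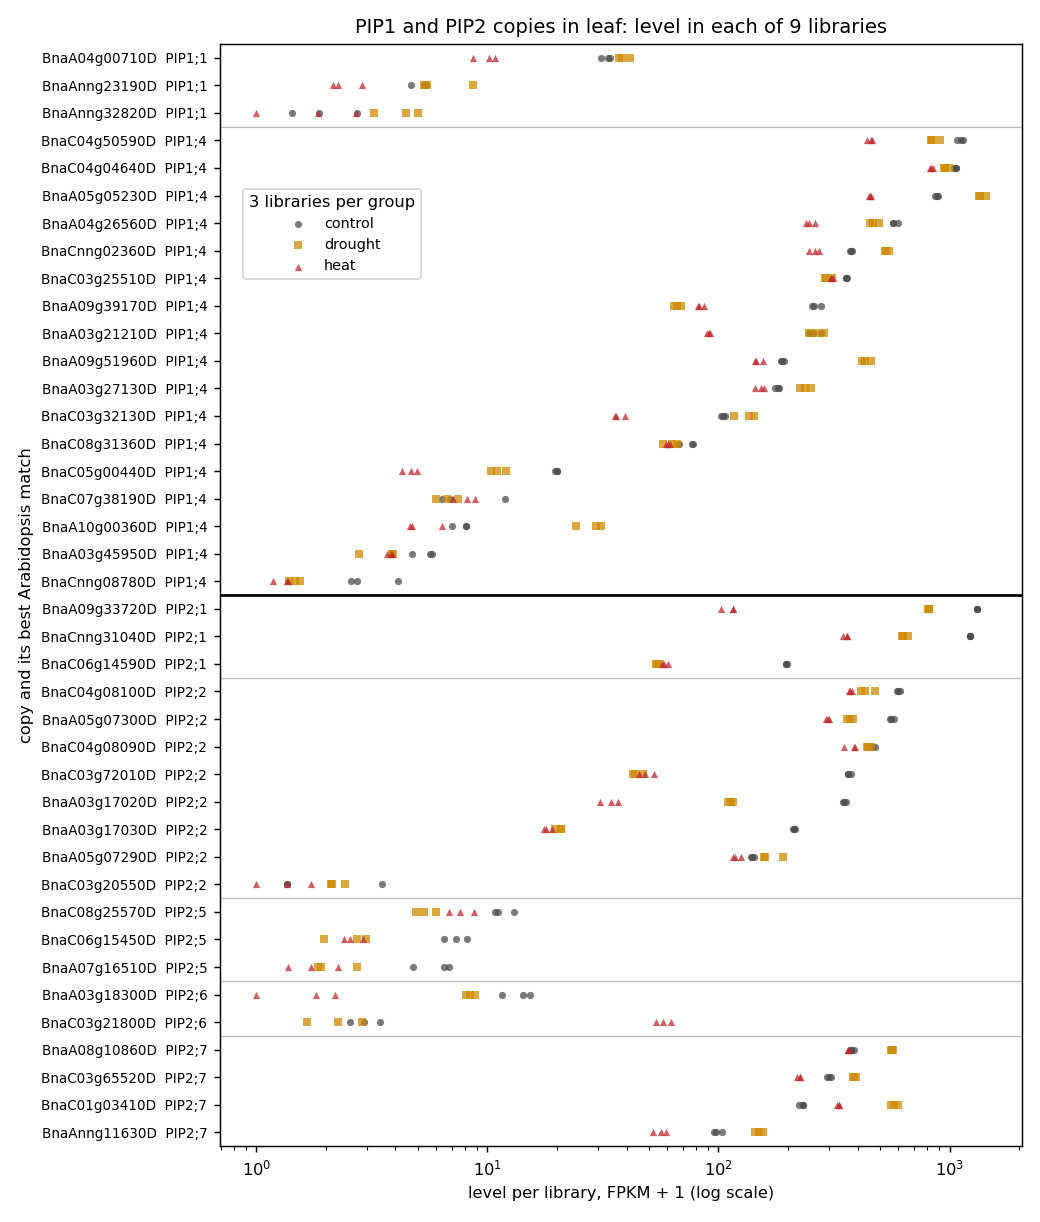
Level of each tested copy in each library, as FPKM + 1 on a log axis, with circles for control, squares for drought and triangles for heat (3 libraries each), ordered by best match and control mean. The PIP2;7 rows have drought on the right, the PIP2;1 rows have heat or both stresses on the left, and the 2 PIP2;6 copies stand at opposite ends in heat.

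PIP1;4 (AT4G00430), which in Arabidopsis passes hydrogen peroxide and is reported to rise in drought, was the best match of 17 copies that together made nearly all of the PIP1 level. Its sum was 5463 ± 83.1 FPKM (SD) in control, 5737 ± 216 in drought and 3133 ± 31.8 in heat, with uncalled changes of 0.07 ± 0.03 and -0.80 ± 0.03. Behind that sum, 2 copies were higher and 2 lower in drought, and 7 were lower in heat. The drought sum thus held copies called in both directions.

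The copies that were higher in drought were BnaA09g51960D and BnaA10g00360D. BnaA09g51960D was at 187, 186 and 191 FPKM in control, 430.1, 418 and 457 FPKM in drought and 143, 144 and 154 FPKM in heat. Drought stood above all other libraries, and the copy rose in drought (log2 change 1.21 ± 0.04 SE, limma adjusted p = 1.13e-09) and was lower in heat than in drought (log2 change -1.56 ± 0.04 SE, limma adjusted p = 7.51e-11). BnaA10g00360D was at 7.05, 7.07 and 6.03 FPKM in control, 23.1, 28.4 and 29.9 FPKM in drought and 5.39, 3.70 and 3.63 FPKM in heat. Drought was again apart from both other groups, with a rise of 1.86 ± 0.14 (SE, limma adjusted p = 8.88e-07). The most abundant copy in drought, BnaA05g05230D, was at 889, 879.9 and 865 FPKM in control, 1337, 1347 and 1436 FPKM in drought and 450.2, 449 and 458 FPKM in heat, and its changes of 0.64 ± 0.03 in drought and -0.96 ± 0.03 in heat each missed the fold threshold. Heat was lower than drought in that copy (log2 change -1.60 ± 0.03 SE, limma adjusted p = 3.37e-12). Against drought, BnaCnng02360D was also lower in heat (log2 change -1.04 ± 0.04 SE, limma adjusted p = 8.15e-10), with levels of 368, 376 and 374 FPKM in control, 524, 530.3 and 545 FPKM in drought and 261, 270.2 and 244 FPKM in heat.

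BnaA09g39170D went the other way in drought, at 276, 253 and 258 FPKM in control, 65.1, 67.8 and 63.3 FPKM in drought and 81.1, 85.7 and 80.7 FPKM in heat. Both stresses lay below control, with drought the lowest, and it fell in drought (log2 change -1.99 ± 0.05 SE, limma adjusted p = 5.20e-11) and in heat (log2 change -1.66 ± 0.05 SE, limma adjusted p = 1.56e-10). BnaCnng08780D was at 1.56, 1.72 and 3.10 FPKM in control, 0.382, 0.471 and 0.545 FPKM in drought and 0.359, 0.370 and 0.182 FPKM in heat. It was called lower in both stresses (log2 changes -1.06 ± 0.18 and -1.23 ± 0.18 SE), but it passed the filter through the control libraries alone, so that its call is not independent of the filter. On leaving out any 1 of the 3 control libraries it no longer passed.

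In heat the 2 most abundant PIP1;4 copies of control leaves had different calls. BnaC04g50590D was at 1143, 1077 and 1116 FPKM in control, 841, 834 and 905 FPKM in drought and 459, 436 and 458 FPKM in heat. Heat was lowest without overlap, a log2 change of -1.30 ± 0.04 (SE, limma adjusted p = 1.35e-10). BnaC04g04640D, of nearly the same control level, was at 1063, 1068 and 1049 FPKM in control, 948, 956 and 990.2 FPKM in drought and 846, 829 and 820.0 FPKM in heat. The groups did not overlap, yet the log2 changes of -0.14 ± 0.02 and -0.35 ± 0.02 were small and not called in any comparison. BnaA04g26560D was at 595, 570.1 and 569 FPKM in control, 465, 450.3 and 492 FPKM in drought and 259, 239 and 246 FPKM in heat and fell in heat (log2 change -1.22 ± 0.04 SE, limma adjusted p = 5.55e-10). BnaA03g21210D was at 277, 256 and 246 FPKM in control, 264, 246 and 286 FPKM in drought and 91.3, 88.2 and 89.9 FPKM in heat, where drought overlapped with control and heat lay below both, a log2 change of -1.52 ± 0.06 (SE, limma adjusted p = 1.50e-09). BnaC03g32130D was at 106, 102 and 103 FPKM in control, 116, 135 and 141 FPKM in drought and 35.0, 34.5 and 38.4 FPKM in heat and fell in heat (log2 change -1.50 ± 0.07 SE, limma adjusted p = 8.37e-09). The low copy BnaC05g00440D was at 19.0, 19.0 and 18.6 FPKM in control, 9.35, 11.1 and 9.95 FPKM in drought and 3.96, 3.27 and 3.69 FPKM in heat and had the largest heat change of the 17, -2.10 ± 0.09 (SE, limma adjusted p = 5.15e-09). The 5 other PIP1;4 copies (BnaC03g25510D, BnaA03g27130D, BnaC08g31360D, BnaC07g38190D and BnaA03g45950D) were called in no comparison.

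PIP1;1 (AT3G61430) was carried by BnaA04g00710D, a model of 225 residues, at 32.8, 30.1 and 32.1 FPKM in control, 40.2, 37.4 and 36.2 FPKM in drought and 7.64, 9.76 and 9.11 FPKM in heat. Heat lay below the other groups and drought slightly above control, and the copy fell in heat (log2 change -1.74 ± 0.09 SE, limma adjusted p = 1.57e-08). Its drought change of 0.25 ± 0.09 was not called. BnaAnng23190D fell in heat (log2 change -1.09 ± 0.19 SE) from a control mean of 4.13 FPKM. BnaAnng32820D, a 60-residue model with at most 9 reads in a library, was at 1.72, 0.427 and 0.859 FPKM in control, 2.24, 3.99 and 3.42 FPKM in drought and 0.845, 0 and 1.71 FPKM in heat. It was called higher in drought at 1.10 ± 0.34 (SE, limma adjusted p = 0.0215), the 1 group in which all of its libraries reached the filter, so that this call is not independent of the filter. The call was also lost on leaving out control library 2 or 3 or drought library 2 or 3, with changes of 0.88, 1.08, 0.97 and 1.06. Summed, PIP1;1 fell in heat (log2 change -1.62 ± 0.06 SE, limma adjusted p = 1.09e-10). The other 4 PIP1;1 copies, all models of 60 residues, had at most 2 reads in any library.

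The remaining untested copies were low throughout. The 1 copy matched to PIP1;2, which in Arabidopsis passes carbon dioxide in the mesophyll, is BnaAnng23200D, a model of 46 residues, and it was at 0 in all 9 libraries, where 3 reads would give 1.75 FPKM. PIP2;4 (AT5G60660), mainly a root gene in Arabidopsis, had 5 copies with at most 16 reads in any library. Its most abundant copy, BnaA03g08820D, was at 0.805, 0.897 and 0.904 FPKM in control, 0.629, 1.66 and 1.40 FPKM in drought and 0, 0 and 0.300 FPKM in heat, with control and drought overlapping. As a locus sum PIP2;4 was 1.84 ± 0.566, 3.63 ± 0.823 and 0.802 ± 0.0123 FPKM (SD), lower in heat than in drought (log2 change -1.34 ± 0.18 SE, limma adjusted p = 1.59e-05) and not called against control. The other 3 untested copies are BnaA07g02320D of PIP2;1, at 0 in all 9 libraries, BnaA09g34600D of PIP2;5, with a control mean of 1.15 FPKM, and BnaC07g45370D of PIP2;7, with 0.889 FPKM.

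Pairs of copies with 1 best match were set beside each other as log2 ratios of (FPKM + 1) within each library, 4 pairs chosen after their values had been seen. With 3 libraries against 3, the exact two-sided permutation test cannot go below p = 0.1, so none can pass, and the adjusted value over the 12 tests was 0.1091 where the groups did not overlap. For PIP2;6, the C copy over the A copy went from a log2 ratio of -2.21 ± 0.17 (SD) in control to 5.19 ± 0.57 in heat. For PIP2;1, BnaA09g33720D made 51.6% to 51.7% of its sum with BnaCnng31040D in control libraries and 22.7% to 24.3% in heat libraries. In the adjacent PIP2;2 genes, BnaA03g17030D over BnaA03g17020D went from -0.72 ± 0.02 in control to -2.46 ± 0.02 in drought and -0.90 ± 0.15 in heat. For PIP1;4, BnaA09g39170D over BnaA09g51960D went from 0.48 ± 0.07 to -2.72 ± 0.11 in drought and -0.83 ± 0.09 in heat.

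**Figure D4:**
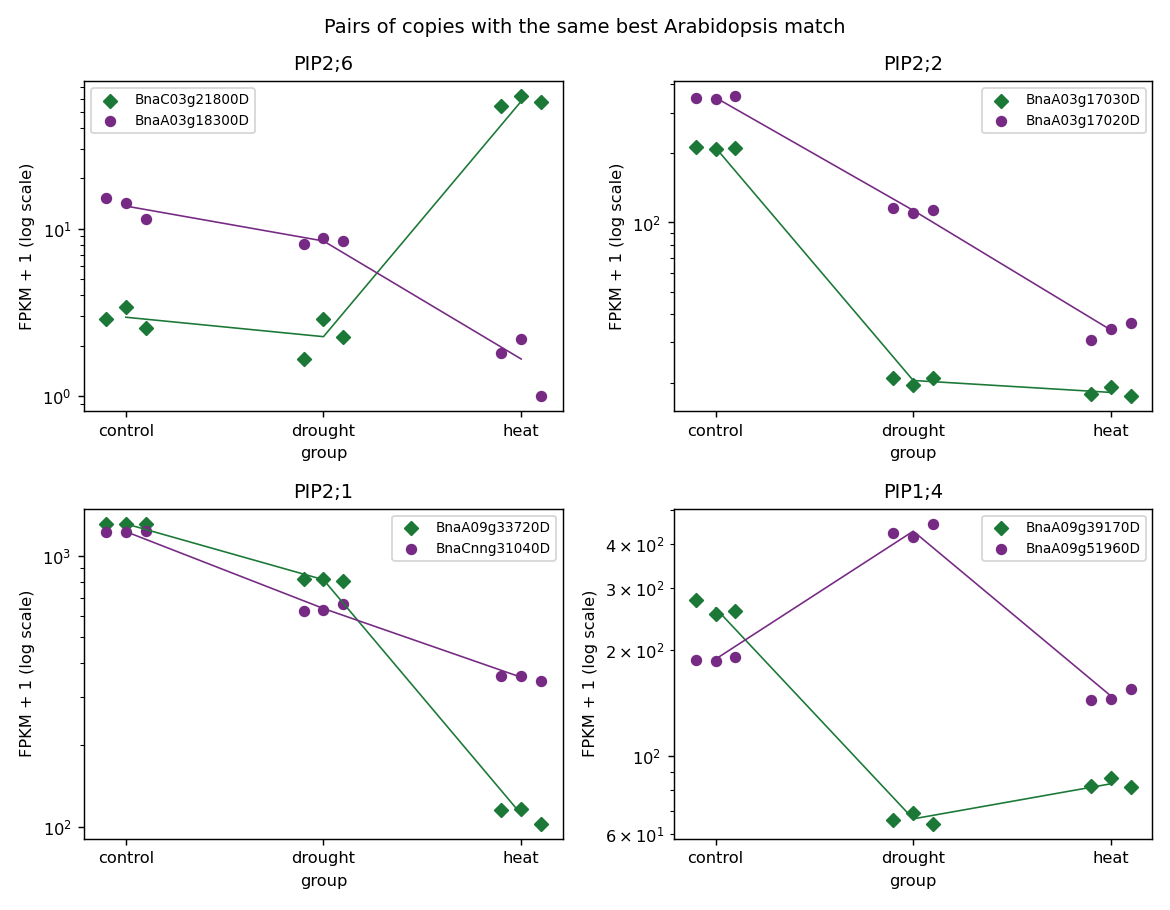
FPKM + 1 on a log axis in each library (points) of 4 pairs of copies with the same best match, by group, with lines joining the group means. The PIP2;6 lines cross between drought and heat, and the PIP1;4 lines cross between control and drought.

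Of the other aquaporin groups, 31 of 87 copies were tested, with 9 lower and 1 higher in drought and 14 lower and 4 higher in heat. Among all genes tested, 6.87% were lower and 5.12% higher in drought, and 11.2% lower and 14.4% higher in heat. The median log2 changes of the 31 were -0.66 in drought and -0.86 in heat. Some copies called lower had all of their libraries at the filter in control alone. They were BnaA10g16540D of SIP1;2, BnaC05g37160D and BnaC03g39560D of TIP2;1, and BnaA02g36290D of NIP6;1. Their calls are not independent of the filter, so counts over the 31 are descriptions. TIP copies, the water channels of the vacuole membrane, gave 6 lower and 1 higher of 15 in drought and 8 lower and 1 higher in heat, and their summed level was 3261 ± 11.6 FPKM in control, 1176 ± 17.6 in drought and 1236 ± 14.8 in heat (SD). TIP1;2 copy BnaC02g36210D fell in drought (log2 change -3.05 ± 0.04 SE, limma adjusted p = 2.92e-13), from a mean of 653 to 78.1 FPKM, and TIP1;2 copy BnaC07g23630D fell in heat (log2 change -2.11 ± 0.06 SE). TIP1;1 copy BnaCnng24720D rose under both, from 20.8 to 177 FPKM in drought and 82.8 in heat. NIP copies, which in Arabidopsis include boric acid channels, gave 2 lower of 9 in drought and 4 lower in heat, with NIP6;1 copy BnaA02g19440D at 21.5, 4.37 and 4.22 FPKM. SIP copies of the endoplasmic reticulum gave 1 lower of 7 in drought and 3 higher and 2 lower in heat, with SIP1;1 copy BnaA05g37440D rising from 4.87 to 27.1 FPKM in heat.

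Genes known in Arabidopsis to act on PIP proteins (the membrane fusion proteins SYP121, SYP61 and VAMP721, RMA ubiquitin ligases, the kinases OST1, CPK7, SIRK1 and BAK1, and TSPO) held 42 tested copies of 49. In drought 3 were higher and 0 lower, against 5.12% and 6.87% of all genes, and in heat 4 were higher and 2 lower, against 14.4% and 11.2%. The higher counts thus lie near the all-gene share in drought and below it in heat, and the median log2 changes were 0.02 and 0.04. The 4 higher in heat were all RMA1 or RMA3 copies, and no RMA2 copy was called there. The called RMA3 copies, BnaC01g19660D and BnaC08g12500D, had all of their libraries at the filter in heat alone. Their calls are thus not independent of the filter. TSPO, which in Arabidopsis directs PIP2;7 protein to breakdown, was named for both its rise and its fall, with copy BnaA04g29550D at 20.9, 17.7 and 18.1 FPKM in control, 98.1, 107 and 116 FPKM in drought and 6.15, 3.51 and 4.23 FPKM in heat. It was highest in drought and lowest in heat without overlap, and it rose in drought (log2 change 2.44 ± 0.15 SE, limma adjusted p = 1.08e-07) and fell in heat (log2 change -1.85 ± 0.15 SE, limma adjusted p = 6.38e-07). The other tested TSPO copy, BnaC04g00110D, had a control mean of 0.524 FPKM. That copy rose in drought (log2 change 1.07 ± 0.19 SE) and was not called in heat (log2 change -0.06 ± 0.19 SE). It passed the filter through the drought libraries alone, so that its rise is not independent of the filter.

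Markers of leaf cell types were read in the same libraries, and their part in the PIP results was not tested. Mesophyll markers (RBCS1A, CAB1, RCA and LHCB2.1) summed to 31441 to 31920.2 FPKM in control, 23582 to 24527 in drought and 25617 to 26337 in heat, with RBCS1A-matched copies at no more than 3.61 FPKM. That sum holds opposite movements. RCA, the activase of Rubisco, was at 24583 to 24847 FPKM in control, 21244 to 22361 in drought and 8138 to 8371 in heat. CAB1, a light-harvesting protein, was at 6371 to 6577, 1972 to 2154 and 16193 to 16678 FPKM, and LHCB2.1 at 486 to 494, 166 to 181 and 1264 to 1287 FPKM, both lowest in drought and highest in heat. Of 18 tested mesophyll copies, 12 were lower in drought, and 5 were lower and 3 higher in heat, beside the all-gene shares of 6.87% lower in drought and 11.2% lower and 14.4% higher in heat. Phloem markers (SUC2, APL and SWEET11) summed to 711 to 769, 710 to 721 and 853 to 882 FPKM, with 0 of 13 called in drought and 1 higher in heat. Guard cell markers (FAMA, MYB60, KAT1 and HT1) summed to 57.8 to 60.6, 50.5 to 59.6 and 49.3 to 55.2 FPKM, with 0 of 12 called in drought and 1 lower in heat. Epidermis markers (ATML1, PDF1 and FDH) summed to 75.6 to 81.2, 67.0 to 73.7 and 54.3 to 60.9 FPKM, with 0 of 9 called in drought and 2 lower in heat. Root markers were near 0, with 14 of 18 rows at 0 in all libraries, RHD6 among them, and a sum of 2.36 to 2.87 FPKM in control, 0.135 to 1.03 in drought and 0.256 to 0.488 in heat, and the 1 tested copy was lower under both stresses. Flower markers summed to at most 2.21 FPKM. Seed markers summed to 1.60 to 3.05, 3.19 to 3.89 and 21.6 to 24.8 FPKM, with both tested copies, of the oil body protein OLEO1, higher in heat and CRU3 at 0.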

How the data were processed

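Alignment was with HISAT2, per the submitters' processing notes. Its version, the genome build, the annotation, the counter and the unit were not given in the sources used here. Judged from the values, the authors deposited FPKM: multiplied by coding length (codons of the protein and the stop), at least 99.4% of nonzero values per library were whole reads, to within 0.01. The sources do not tell reads from fragments. The best Arabidopsis match, its percent identity and the protein length were used as deposited by the authors. The table's column names fit both species apart from a prefix, and were taken as Brassica napus because the table lists Brassica napus genes under those samples' line code.

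Testing used log2(FPKM + 1) without further scaling, for genes that reached 1 FPKM in 3 or more libraries. The pseudocount of 1 understates the change of low genes. The fit was limma (3.58.1, under R 4.3.3) with a mean for each group, all 9 libraries, trend and robust moderation and Benjamini-Hochberg adjustment over all genes tested. Locus sums were fitted in the same way. Values per library are given for called copies with a group mean of at least 10 FPKM and for the highest copy of each locus; of other aquaporins and regulators, the largest called rise and fall per list. Copies below that level, and the pairs, were named after their values were seen. The members and lists were chosen with earlier results of these data known. Alternatives were TMM and quantile scaling, a pseudocount of 0.1, filters, no fold threshold, plain moderation, a replicate block, only the groups compared, voom on recovered reads, and leaving out each library. Pair tests used SciPy 1.17.1 and figures Matplotlib 3.10.9.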

Additional observations from a re-analysis of the deposited data

How the results depend on the processing

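Without the fold threshold, the tested PIP copies gave 13 higher and 21 lower in drought, 2 higher and 34 lower in heat, and 3 higher and 27 lower in heat against drought. Of all genes tested, 19.6% were then higher and 26.5% lower in drought, 40.1% and 27.6% in heat, and 42.9% and 26.7% in heat against drought. For PIP1 that was 8 higher and 9 lower, then 18 lower, then 1 higher and 14 lower, and for PIP2 5 higher and 12 lower, 2 higher and 16 lower, and 2 higher and 13 lower. TMM gave 7 lower PIP2 copies and 5 lower loci in heat against drought. Quantile scaling gave 1 lower PIP1 copy and 2 lower loci in drought, and a filter of 5 FPKM 1 lower PIP1 copy. Counted in recovered reads, the PIP1 share was 46.65% in control and 53.20% in heat. Leaving out each library in turn gave 1 to 2 lower PIP1 copies in drought and 17 to 18 lower PIP copies in heat. Replicate numbers did not pair the libraries (correlations of deviations from -0.02 to 0.03), and with the replicate block the counts were again 9 lower in drought and 18 in heat.

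Some uncalled changes turned sign, and the cause was not tested. Under TMM, heat against drought became -0.17 in BnaC06g14590D, -0.14 in BnaC03g72010D and -0.12 in BnaC06g15450D, and drought became 0.033 in BnaC04g08090D. Under quantile scaling, BnaA03g21210D in drought became -0.13, BnaC06g15450D in heat against drought -0.22, and the sums became -0.00873 for PIP1;4 in drought, -0.0107 for PIP2;5 in heat against drought and 0.00634 for PIP2;7 in heat. Leaving out each library in turn, BnaA03g21210D in drought ran from -0.0214 to 0.0856 (below 0 without control 3 or drought 3), BnaC06g15450D in heat against drought from -0.13 to 0.17 (below 0 without drought 1 or heat 1), and BnaAnng32820D in heat from -0.51 to 0.21 (above 0 without control 1 or heat 2). Copies with few reads, such as those of PIP2;4, are limited by depth.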

Other observations

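The A and C subgenome copies were summed separately, as a description without a test. The C copies made 54.4% ± 0.255 (SD, n = 3) of the summed PIP level in control, 51.5% ± 0.124 in drought and 63.4% ± 0.255 in heat. Within PIP1 their share was 56.5%, 49.5% and 62.2%, and within PIP2 52.6%, 54.0% and 64.7%. The A sums over all PIP copies and within PIP2 include BnaA09g33720D, with a mean of 1308 FPKM in control and 110 FPKM in heat. The change of both shares from control to heat thus depends strongly on this copy, mainly through the control sums. The C share over all genes was not taken. Of the 20 tested A copies, 3 were higher and 4 lower in drought, and 0 were higher and 10 lower in heat by limma. Of the 20 tested C copies, 1 was higher and 5 lower in drought, and 1 was higher and 8 lower in heat. Of all genes tested, 5.12% were higher and 6.87% lower in drought, and 14.4% higher and 11.2% lower in heat. The median log2 change in heat was -1.02 over the A copies and -0.56 over the C copies, against 0.16 over all genes tested.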
